A study of Mus musculus with 12 samples.

Results

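The potassium channel genes are the mouse genes whose symbol begins with Kcn. They encode the pores through which potassium ions cross the membrane and the subunits that attach to those pores. Of 21631 RefSeq protein-coding genes on chromosomes 1 to 19 and X, 94 carried such a symbol, and they fell into 21 subfamilies by the letters that follow Kcn. H3K27me3 is the repressive histone mark of Polycomb. CUT&RUN, which sends a nuclease to antibody-bound chromatin and sequences the released fragments, was run on suspensions of epidermal keratinocytes from female mice. The Utx-cKO animals were Cre+; Utx fl/fl, with Utx (Kdm6a), an X-linked demethylase of this mark, deleted by Krt14-Cre in tissue that expresses keratin 14. The WT animals were Cre-; Utx fl/fl, so both genotypes carried the floxed alleles. Ages were not given in the labels. Each genotype had 3 H3K27me3 libraries and 3 IgG libraries. The data analysed were 1 peak list per genotype, called on the merged data of its animals, with 8914 peaks in Utx-cKO and 7826 in WT.

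Pooling leaves no spread between animals, so every difference below is a description of these lists without a test, and sequencing depth is unknown. A gene was called marked when a peak reached its body or the 2 kb on either side. All positions are mm10 (GRCm38). An epidermal suspension can also hold melanocytes, Langerhans cells and T cells, which do not express keratin 14 and may keep Utx. The keratinocyte genes Krt5, Krt14, Krt1, Krt10 and Trp63 were unmarked in both lists, as was Mitf of melanocytes. Dct of melanocytes and Cd3e of T cells were marked in both, and Cd207 of Langerhans cells had a peak in its flank alone, with 0% of the body covered, in both. The part of these cells in the results was not tested. Less of the mark per cell and fewer cells that bear it cannot be told apart in such data.

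Potassium channels set the resting potential and end the action potential in nerve and muscle, and in epithelia they take part in ion transport and volume control. Voltage-gated, inwardly rectifying, tandem-pore and calcium-activated channels form the main groups, and auxiliary subunits change how the pores open or travel to the membrane. Genes of lineage-restricted function, including many neuronal channels, are known to lie in Polycomb domains in cells that do not use them.

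More than 50% of the potassium channel genes were marked in each genotype. In Utx-cKO 57 of 94 were marked (60.6%, 95% Clopper-Pearson interval 50.02 to 70.6%), and in WT 51 (54.3%, 43.7 to 64.6%), where the intervals cover counting error only. Among all protein-coding genes, Utx-cKO peaks marked 19.5% and WT peaks 18.0%. Every member marked in WT was also marked in Utx-cKO. The 6 further Utx-cKO genes (6.38%) were Kcne3, Kcnf1, Kcnh2, Kcnj6, Kcnk18 and Kcnn4, each from a different subfamily, while 0 of 94 members were marked in WT alone. The background of protein-coding genes found in a single list was 3.13% for Utx-cKO and 1.64% for WT. Among genes marked in Utx-cKO the order was the other way, with 6 of 57 members in that list alone against 678 of 4217 genes. When both lists were held to the WT minimum of total signal, Utx-cKO alone kept 5 of these members, without Kcnh2, and WT alone had 0. The background was then 2.10% and 2.13%. That floor assumes a common signal scale.

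**Figure D1:**
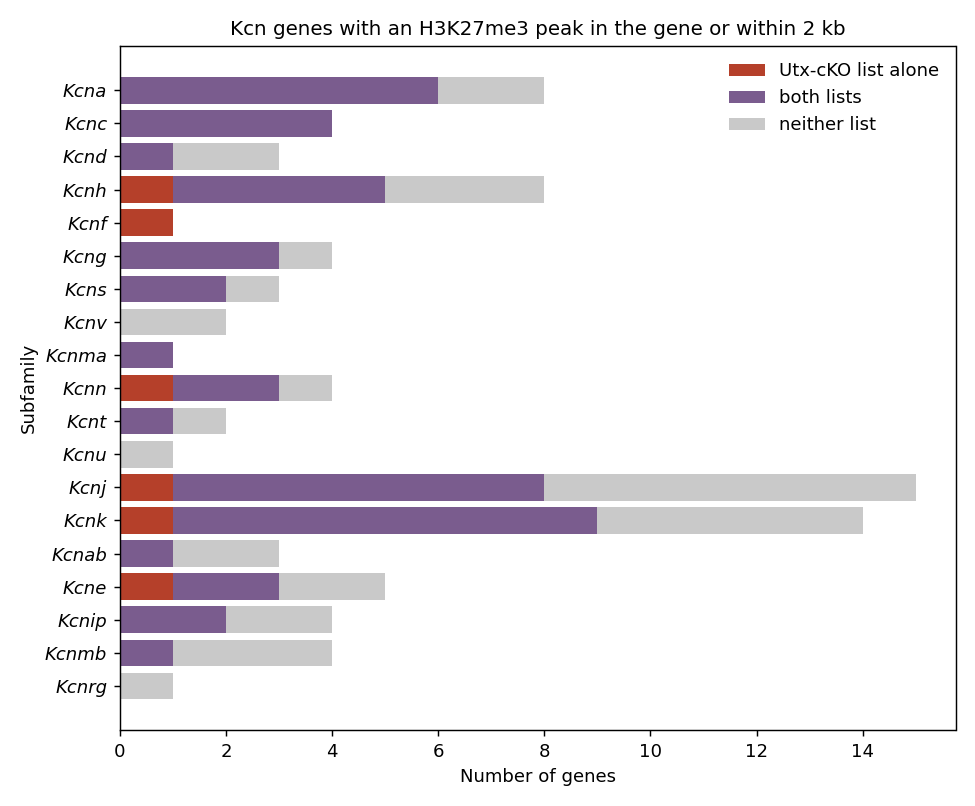
Number of Kcn genes per subfamily with a peak in the Utx-cKO list alone, in both lists or in neither. The subfamilies shown run from the voltage-gated families at the top to the auxiliary families at the bottom, and the 6 genes marked in Utx-cKO alone each stand in a different subfamily.

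Among the 30 pore-forming voltage-gated genes, Utx-cKO peaks marked 22 and WT peaks 21. All 4 Kcnc genes were marked in both genotypes, as were 6 of 8 Kcna genes. Kcnd contributed 1 of 3. Kcnh contributed 5 of 8 in Utx-cKO and 4 of 8 in WT.

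The Kcna genes, which encode Shaker-type channels of axons and lymphocytes, had the most complete coverage. Kcna1, Kcna3 and Kcna5 were covered over 100% of their bodies in both genotypes. The Kcna5 peak was the widest of the subfamily, 60100 bp in Utx-cKO and 73100 bp in WT. Kcna6 was covered over 100% in Utx-cKO by 1 peak of 52150 bp, and over 75.1% in WT by peaks of 37900 and 5600 bp. Kcna10 was covered over 90.8% in Utx-cKO and 7.72% in WT, and these peaks stood at percentiles 50.4 and 1.73 of their lists by total signal, the coverage summed over the peak. For Kcna2 the order was the other way, with 84.6% in Utx-cKO and 91.0% in WT. The widest peak at a marked Kcna gene had a median of 46925 bp in Utx-cKO and 32550 bp in WT. The members without a peak were Kcna4 and Kcna7.

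These genes stand in a pair of clusters. Kcna5, Kcna1 and Kcna6 span 208 kb of chromosome 6, of which peaks covered 85.0% in Utx-cKO and 69.9% in WT. Each gene there lay in a peak of its own (chr6:126495351-126555450, chr6:126634651-126684850 and chr6:126693101-126745250 in Utx-cKO). Kcna3, Kcna2 and Kcna10 span 160 kb of chromosome 3, covered over 61.9% in Utx-cKO and 43.5% in WT. The signal maximum of the Kcna3 peak lay at the same place in both lists, 1213 bp downstream of the gene's start.

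**Figure D2:**
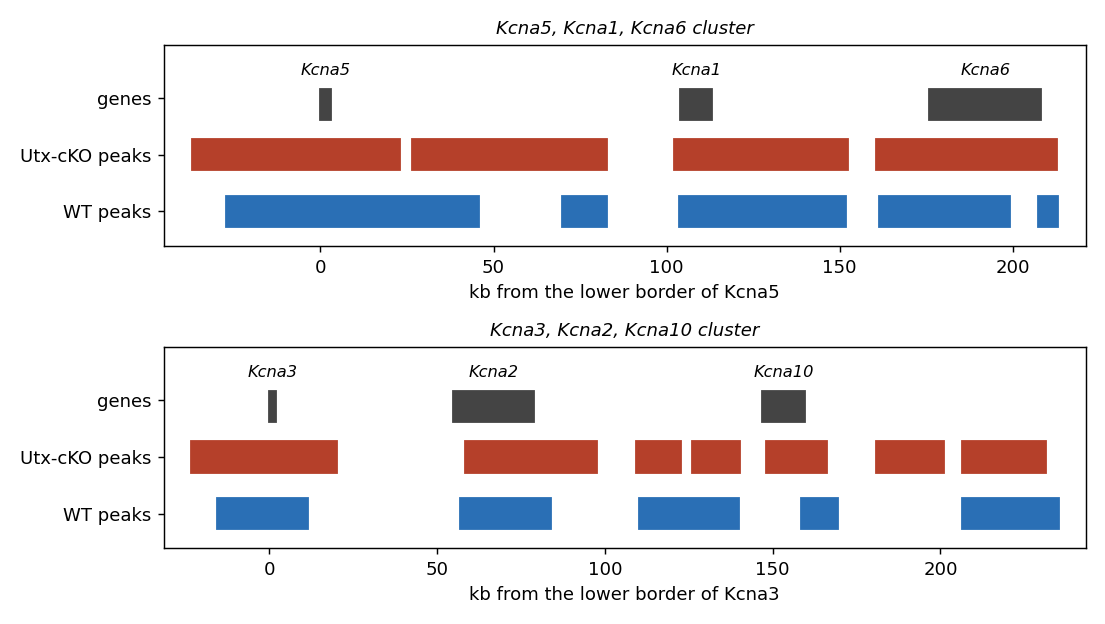
Genes (grey) and H3K27me3 peaks of the Utx-cKO list (red) and the WT list (blue) in the Kcna clusters of chromosome 6 (top) and chromosome 3 (bottom), drawn to scale in kb from the lower border of the first gene. The peaks sit over the same genes in both lists but differ in their borders, most visibly at Kcna10.

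The other voltage-gated families were covered in part. Kcnc genes encode the fast channels of rapidly firing neurons, and their marked ends differed in width. The Kcnc1 peak measured 29400 bp in Utx-cKO and 6300 bp in WT, ended at the same base just past the gene's upstream border, and covered 0.193% of the body in both. Kcnc4 held the widest Kcnc peak of each list, but these were different peaks. That of Utx-cKO, 39150 bp (chr3:107398951-107438100), lay in the downstream flank, and WT peaks covered 91.7% of it. That of WT, 29700 bp (chr3:107448651-107478350), lay over the upstream end and covered 52.9% of the body. Of the 3 Utx-cKO peaks in the window, only that of 9850 bp touched the body, covering 44.8%. The maximum of the Kcnc1 peak lay at -394 bp from that border in Utx-cKO and at -694 bp in WT, both upstream. Kcnd3, a pore of the transient outward current, had 5 peaks in Utx-cKO and 2 in WT, covering 30.8% and 12.8% of its body. Its relatives Kcnd1, on the X, and Kcnd2 were unmarked.

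The Kcnq genes carry slow voltage-gated currents. Kcnq1, a cardiac and epithelial pore whose locus hosts the imprinted antisense RNA Kcnq1ot1, had 4 peaks in Utx-cKO and 5 in WT. The last of each list lay in the flank, and the others covered 59.1% and 56.5% of its 320 kb. Its widest peak was a different one in each list, 84750 bp in Utx-cKO (chr7:143170151-143254900) and 69900 bp in WT (chr7:143089751-143159650). The former overlapped a WT peak of 68050 bp, and the latter a Utx-cKO peak of 54050 bp. Kcnq3 and Kcnq5 bore the mark at 1 end only, over 4.92% and 1.54% of the body in Utx-cKO and 6.19% and 1.83% in WT.

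The Kcnh genes, relatives of the Drosophila ether-a-go-go channel, had narrow peaks. The widest peak at a marked member had a median of 13600 bp in Utx-cKO and 10775 bp in WT. The former takes in Kcnh2 and interior peaks of Kcnh1 and Kcnh5 that overlapped no WT peak. Kcnh1, Kcnh3, Kcnh5 and Kcnh8 were marked in both, each at 1 end. In that order, the end peaks measured 8700, 13600, 11650 and 6850 bp in Utx-cKO. In WT they measured 8700, 12850, 13650 and 8550 bp. The end peak of Kcnh1 had identical borders in both lists (chr1:192190951-192199650), and a further interior peak of 17150 bp stood in Utx-cKO. Kcnh5 had 2 peaks in Utx-cKO, the wider an interior peak of 16050 bp without a WT counterpart, and in WT its end peak alone. Kcnh4, Kcnh6 and Kcnh7 were unmarked, and Kcnh2 is described below.

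The silent voltage-gated genes encode subunits that form no channel alone and alter other voltage-gated channels. Utx-cKO peaks marked 6 of these 10 and WT peaks 5. Kcng2 was covered over 66.1% in Utx-cKO and 44.0% in WT, and Kcng1 over 51.3% in Utx-cKO and 71.4% in WT. Kcns1, a modulator found in sensory neurons, had a peak of 15650 bp in both lists, covering 85.6% of the body in Utx-cKO and 84.2% in WT. Kcng3 and Kcns3 were marked at 1 end. Kcng4, Kcns2, Kcnv1 and Kcnv2 were unmarked.

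The group of calcium- or sodium-activated pores had 5 of 8 genes marked in Utx-cKO and 4 of 8 in WT. Kcnu1 was counted there by subfamily, not by what opens the channel. Kcnma1, the pore of the large-conductance BK channel, had 6 peaks in Utx-cKO and 3 in WT. The strongest one lay at its start in both, 69250 bp wide in Utx-cKO (chr14:23995901-24065150) and 20550 bp in WT (chr14:23998401-24018950). Kcnn3, a small-conductance channel of neurons, had 5 peaks in Utx-cKO and 3 in WT, over 43.8% and 40.9% of its body. Kcnn2 held 1 interior peak in each genotype, and Kcnt1, a sodium-activated pore, was covered over 25.8% in Utx-cKO and 40.3% in WT. Kcnn1, Kcnt2 and the sperm channel gene Kcnu1 were unmarked.

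The inward rectifiers (Kcnj) had peaks at 8 of 15 genes in Utx-cKO and at 7 in WT. The strongest peaks of the 7 genes marked in both ran from percentile 78.9 to 93.2 in Utx-cKO and from 78.7 to 92.6 in WT. Kcnj1, the renal outer medullary channel, was covered over 92.2% in Utx-cKO by 2 peaks and 100% in WT by 1. In Utx-cKO its strongest peak met the downstream end alone, and the peak over most of the gene stood at percentile 61.4. Kcnj8, the pore of the vascular ATP-sensitive channel, was covered over 88.0% in Utx-cKO and 100% in WT. Kcnj5, a G protein-gated pore of the atrium, had nearly the same peak in both lists (chr9:32330151-32354300 in Utx-cKO, ending at 32354150 in WT) over 48.0% of its body. Kcnj9 and Kcnj10, a neuronal and a glial rectifier, shared a peak of 40600 bp in Utx-cKO and 27100 bp in WT. With it, Kcnj10 was covered over 78.6% in Utx-cKO and 37.8% in WT, and Kcnj9 over 32.6% and 31.4%. Kcnj4 and Kcnj12 were marked at 1 end in both. Kcnj2, Kcnj3, Kcnj11, Kcnj13, Kcnj14, Kcnj15 and Kcnj16 were unmarked.

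The tandem-pore genes (Kcnk) make the background or leak channels. Peaks marked 9 of these 14 in Utx-cKO and 8 in WT. Kcnk1 lay under a peak of 15850 bp in Utx-cKO and 62600 bp in WT, which held rank 357 of its list, the highest rank of any member in WT. Coverage of Kcnk1 was 30.1% in Utx-cKO and 41.6% in WT. Kcnk3, an acid-sensitive leak channel, had 1 peak in Utx-cKO and 3 in WT, and 22.1% and 46.0% of the body was covered. The WT peak at chr5:30583351-30587950 lay in the flank. Its relative Kcnk9, which is imprinted in brain, held a single interior peak of 6850 bp in Utx-cKO and 4800 bp in WT. Kcnk13, a microglial channel, was covered over 54.6% in Utx-cKO and 39.6% in WT. Kcnk15 carried a single narrow peak, 4350 bp in Utx-cKO and 4700 bp in WT, which still covered 84.9% and 91.7% of this short gene. Kcnk12 had the widest Kcnk peak of the Utx-cKO list, 28350 bp, against 17400 bp in WT. Kcnk2, a mechanically gated leak channel, and Kcnk10 were marked in both lists, while Kcnk4, Kcnk5, Kcnk6, Kcnk7 and Kcnk16 were unmarked.

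Auxiliary and regulatory genes formed the class with the lowest marked share, 7 of 17 in Utx-cKO (41.2%) and 6 of 17 in WT (35.3%). Kcne2, a partner of Kcnq1 and Kcnh2, was covered over 100% in both, by 19000 bp in Utx-cKO and 8250 bp in WT. Kcne1l, the only marked member on the X, was covered over 100% in Utx-cKO by a peak of 93700 bp and over 0% in WT, where a peak of 29650 bp began 102 bp beyond the gene. The Utx-cKO peak also met Nxt2 and Acsl4, and the WT peak met Acsl4. With the X left out, the marked share of all protein-coding genes was 17.6% in Utx-cKO and 16.1% in WT, against 19.5% and 18.0% with it. Kcnip1, a calcium-binding partner of Kcnd pores, had 5 peaks in Utx-cKO and 3 in WT. Kcnip3 had its peak 1597 bp outside the gene in Utx-cKO and over 2.44% of the body in WT. Kcnab1, a cytoplasmic beta subunit, held 1 interior peak in each list and Kcnmb4, a neuronal BK subunit, 1 peak at its start. Kcnab2, Kcnab3, Kcne1, Kcne4, Kcnip2, Kcnip4, Kcnmb1, Kcnmb2, Kcnmb3 and Kcnrg were unmarked. Of 12 partner subunits outside the Kcn names, 5 were marked in each genotype, namely Lrrc38, Lrrc55, Cntnap2, Adam22 and Lgi1. Abcc8 and Abcc9, regulators of the Kcnj11 and Kcnj8 channels, and Dpp6 and Dpp10, partners of Kcnd pores, were not.

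Of the 51 genes marked in both genotypes, 37 differed by at most 10 percentage points in body coverage. Coverage was more than 10 points higher in Utx-cKO at 9 genes and more than 10 points lower at 5. The median difference was 0.305 points. These differences were not taken over all protein-coding genes marked in both lists, so they describe the members alone. At least 90% of the body was covered in 8 members in each genotype (8.51%), against 4.10% of all protein-coding genes in Utx-cKO and 3.82% in WT. Among marked genes the order was the other way, with 14.0% of members against 21.0% of all in Utx-cKO and 15.7% against 21.2% in WT. The 5 genes past 90% in both lists were Kcna1, Kcna3, Kcna5, Kcne2 and Kcnj1. Just inside that threshold lay Kcna10 at 90.8% in Utx-cKO and Kcna2 at 91.0% in WT, and just outside it Kcnj8 at 88.0% in Utx-cKO and Kcns1 at 84.2% in WT. Summed over all 94 genes, peaks covered 1.22 Mb in Utx-cKO (11.4%) and 0.972 Mb in WT (9.10%) of 10.7 Mb. Over all protein-coding genes they covered 7.85% and 7.47%.

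**Figure D3:**
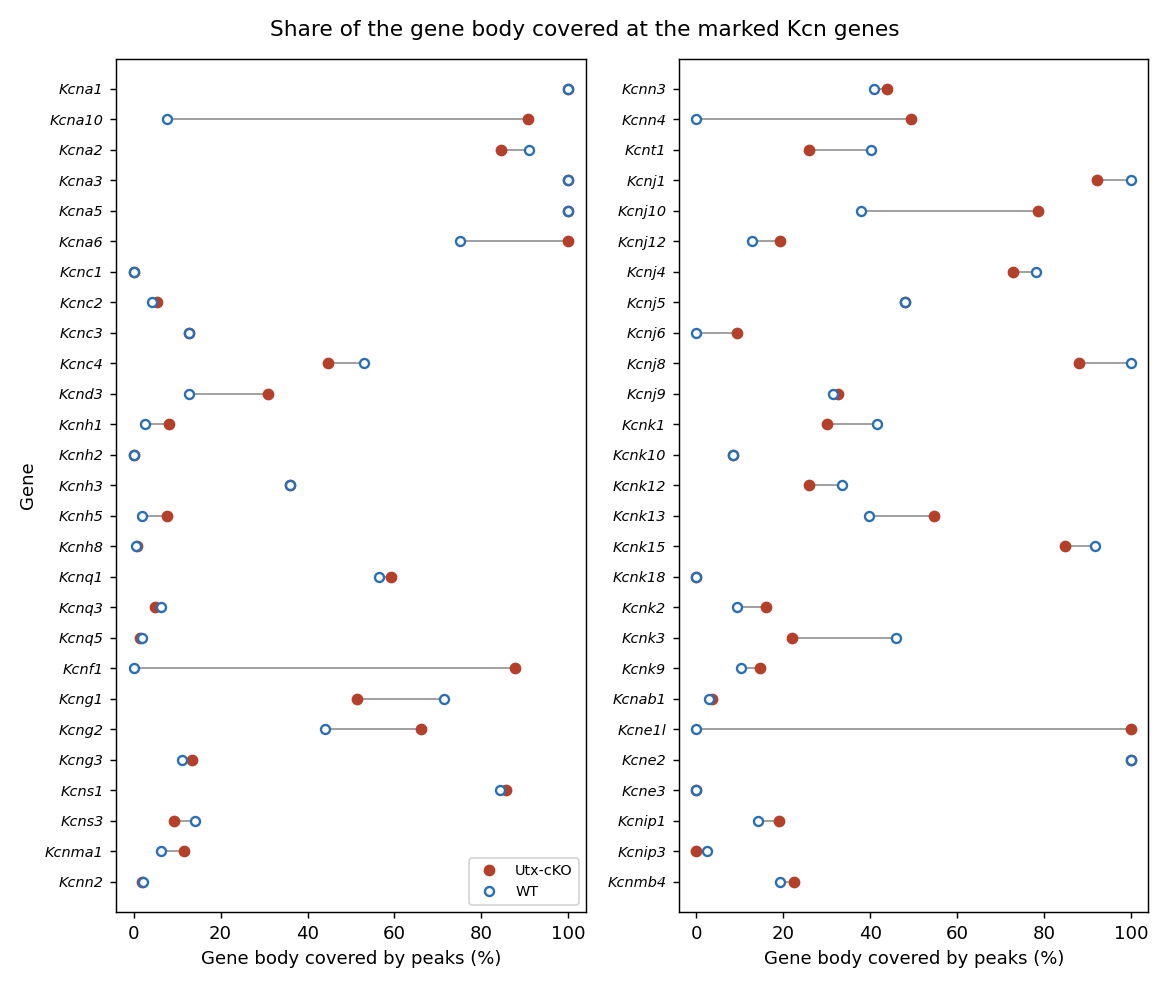
Share of the gene body covered by peaks (%) at marked Kcn genes in Utx-cKO (filled red) and WT (open blue), with a line joining the values of a gene. The longest lines belong to Kcne1l, Kcnf1 and Kcna10, while 37 of the 51 genes marked in both lists differ by at most 10 points.

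Most marked genes bore the mark at an end. A peak within 2 kb of 1 end was the most frequent arrangement, with 31 of 57 genes in Utx-cKO and 31 of 51 in WT, against 45.2% and 45.4% of all marked protein-coding genes. Both ends without 90% coverage were reached at 10 genes in Utx-cKO (17.5%) and 8 in WT (15.7%), against 12.3% and 12.7% of all marked genes. The interior alone held peaks at 4 members in Utx-cKO (7.02%) and 3 in WT (5.88%), against 9.44% and 9.60%, and the flank alone at 4 (7.02%) and 1 (1.96%), against 12.0% and 11.1%. Strand was known for the 69 members that matched the RefSeq promoter table (GRCm38.p6), and 43 of these had a peak in Utx-cKO, against 37 in WT. A peak lay within 2 kb of the upstream end in 37 of these 43 (86.0%) and in 33 of these 37 (89.2%), against 76.6% and 76.7% of all marked genes with known strand. Of the members marked at 1 end, 20 of 22 in Utx-cKO (90.9%) and 21 of 23 in WT (91.3%) were marked at the upstream end, against 75.7% and 75.5% of all such genes. These shares rest on few members.

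A window from 250 bases before to 50 bases after the outermost listed start was counted when a peak overlapped at least 1 bp. The start itself can then lie outside the peak, as at Kcnc1. Such windows met a peak in 28 of the 69 members in Utx-cKO (40.6%) and 29 in WT (42.0%), 27 of them in both. Over 17274 protein-coding genes with such a window, the shares were 10.6% and 10.1%. Windows with few and with many CG dinucleotides met peaks. The motif CG reads the same on both strands. In the 27 windows that met peaks of both lists it occurred 2 to 48 times in 300 bases, with a median of 10. In the 39 windows that met no peak it occurred 0 to 49 times, with a median of 9. At least 15 occurrences were found in 40.7% of the first set, 35.9% of the second and 47.9% of all windows. Examples of high and low counts are shown as the 250 bases before the start from RefSeq, with CG in capitals, for Kcnmb4 (chr10:116473524-116473773, minus strand) and Kcnj1 (chr9:32393735-32393984, plus strand), whose starts lay in peaks of both genotypes, and for Kcnk5 (chr14:20181783-20182032, minus strand) and Kcnmb1 (chr11:33962763-33963012, plus strand), which were marked in neither. Outside every peak the lowest and highest counts belonged to Kcna10 (0) and Kcng3 (49), whose peaks lay off the start, while Kcnd2 tied with Kcnk5 at 26 and Kcnrg with Kcnmb1 at 1 in the 300 bases. The 4 shown were chosen after their counts were seen, and 5′ to 3′ they read:
Kcnmb4: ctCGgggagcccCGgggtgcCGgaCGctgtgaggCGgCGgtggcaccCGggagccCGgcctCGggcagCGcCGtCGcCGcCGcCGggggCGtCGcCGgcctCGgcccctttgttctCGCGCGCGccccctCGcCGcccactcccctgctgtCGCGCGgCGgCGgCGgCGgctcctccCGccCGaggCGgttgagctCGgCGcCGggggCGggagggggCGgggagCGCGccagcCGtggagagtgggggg
Kcnj1: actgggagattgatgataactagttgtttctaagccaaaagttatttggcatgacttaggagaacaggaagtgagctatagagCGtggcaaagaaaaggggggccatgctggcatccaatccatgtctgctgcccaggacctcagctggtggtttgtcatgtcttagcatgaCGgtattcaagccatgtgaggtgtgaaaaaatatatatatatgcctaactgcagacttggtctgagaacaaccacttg
Kcnk5: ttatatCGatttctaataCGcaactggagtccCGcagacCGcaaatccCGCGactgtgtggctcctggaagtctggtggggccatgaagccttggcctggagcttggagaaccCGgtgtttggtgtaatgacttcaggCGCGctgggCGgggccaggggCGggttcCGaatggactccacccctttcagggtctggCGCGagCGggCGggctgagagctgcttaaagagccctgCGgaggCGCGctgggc
Kcnmb1: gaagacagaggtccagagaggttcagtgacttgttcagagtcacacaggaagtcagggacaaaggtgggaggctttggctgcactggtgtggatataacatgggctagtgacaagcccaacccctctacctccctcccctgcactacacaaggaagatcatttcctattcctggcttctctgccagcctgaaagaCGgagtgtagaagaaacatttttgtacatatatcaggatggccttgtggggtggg
In these 250 bases CG occurred 43 times before Kcnmb4, 2 times before Kcnj1, 19 times before Kcnk5 and 1 time before Kcnmb1. A CG-poor and a CG-rich start occurred in both pairs of genes.

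The 6 genes with a peak only in the Utx-cKO list rested on 7 peaks, none of which reached a listed start window of its gene. The only listed window of Kcnh2 (chr5:24329542-24329841) lies inside the gene, away from its upstream border. The peaks were weak or moderate, at percentiles 9.20 to 57.9 of the Utx-cKO list, and 5 of the 7 overlapped no WT peak. Kcnf1, a silent subunit gene without introns, was covered over 87.7% by a peak of 7050 bp (chr12:17169251-17176300) that held rank 7060 and stopped 588 bp short of the start. The nearest WT peak lay 71749 bp from the gene. Kcnn4, the intermediate-conductance channel of lymphocytes and red cells, was covered over its downstream 49.5% (chr7:24377601-24389050, rank 6912), with the nearest WT peak at 58538 bp.

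Kcnj6, a neuronal G protein-gated rectifier, held a pair of interior peaks (chr16:94748651-94761000, rank 5516, and chr16:94786801-94798350, rank 8093), 236696 and 199346 bp downstream of the start. Kcnh2, the gene of the hERG channel that repolarises the heart, had a peak 966 bp upstream of the gene (chr5:24352651-24362200, rank 7786). Its total signal was 39887.6, under the WT minimum of 40307.2.

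At the remaining pair a WT peak lay near. The Kcne3 peak (chr7:100186851-100202050, rank 3753) began 1981 bp beyond the gene and was covered over 86.8% by a WT peak that began 2081 bp beyond it, just outside the 2 kb window. Kcne3 encodes an auxiliary subunit of epithelial Kcnq1 channels. The Kcnk18 peak (chr19:59206401-59219000, rank 6241) ended 647 bp before this sensory neuron leak channel gene, and a WT peak with the same left border covered 75.8% of it and ended 3697 bp before the gene. Counting peaks that touch the gene body itself, the Utx-cKO list alone held 4 members (Kcne1l, Kcnf1, Kcnj6 and Kcnn4) and the WT list alone held Kcnip3. These were 4.26% and 1.06% of members, against 2.61% and 1.46% of all protein-coding genes. By this rule 56.4% of members and 17.1% of all protein-coding genes were marked in Utx-cKO, and 53.2% and 16.0% in WT.

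The marked members rested on 90 distinct peaks in Utx-cKO and 73 in WT. Of these, 72 (80.0%) in Utx-cKO and 70 (95.9%) in WT overlapped a peak of the other list. At all marked protein-coding genes these shares were 81.9% and 90.7%. Their median width was 17025 bp in Utx-cKO and 18900 bp in WT, against 16500 and 17950 bp over the whole lists. That order of the genotypes turned round with peaks at gene ends (19000 and 18975 bp) and in the stronger 50% of each list (25150 and 24900 bp).

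Additional Utx-cKO peaks in genes marked in both genotypes lay inside the genes. There were 13 peaks without a WT counterpart in 7 such genes, and all 13 lay more than 2 kb from either gene end. Kcnd3, Kcnip1 and Kcnma1 held 3 each, and Kcnh1, Kcnh5, Kcnk13 and Kcnn3 held 1 each. They were weak, at percentiles 0.123 to 33.4 with a median of 15.3, and 7 of the 13 reached the WT minimum of total signal. Of the 3 WT peaks without a counterpart, 0 lay inside by this rule. In all 3539 protein-coding genes marked in both lists, 374 of 507 such Utx-cKO peaks (73.8%) and 194 of 272 such WT peaks (71.3%) lay inside. Of the Utx-cKO peaks with a counterpart, 14 of 70 at Kcn genes and 33.7% at all these genes did.

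By signal, the strongest peak of a marked member had a median percentile of 80.2 in Utx-cKO and 78.8 in WT, against 69.1 in both lists over all marked protein-coding genes. On autosomes alone the medians were 80.1 and 78.8 for the members, against 66.6 and 66.8. The highest ranks in Utx-cKO were those of Kcne1l (337), Kcna1 (374), Kcnma1 (407) and Kcnq1 (530). In WT they were those of Kcnk1 (357), Kcna1 (406), Kcnq1 (428), Kcna5 (457) and Kcnj5 (583). The top 10% of the list held the peak of 13 of 57 members in Utx-cKO (22.8%) and 9 of 51 in WT (17.6%), against 22.1% and 21.3% of all marked genes. By class, the median percentile ran from 60.9 for auxiliary genes to 87.5 for inward rectifiers in Utx-cKO and from 57.4 to 87.0 in WT. Ranks within lists of different length do not measure a change between genotypes.

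**Figure D4:**
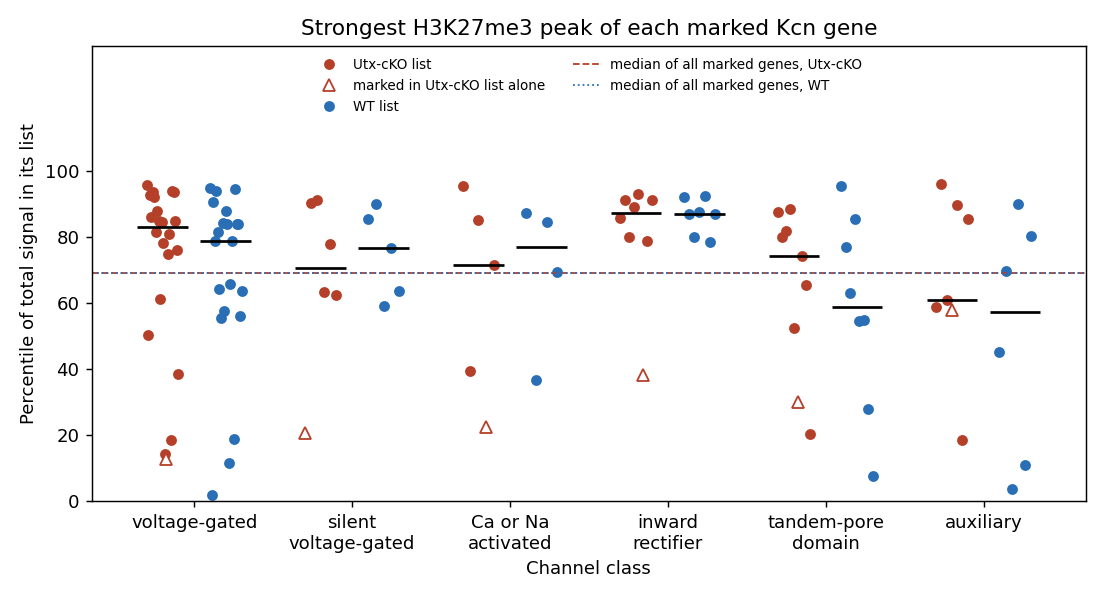
Percentile of total signal of the strongest peak of each marked Kcn gene within the Utx-cKO list (red, left in each class) and the WT list (blue, right), with black bars at class medians. The 6 genes marked in Utx-cKO alone (open triangles) lie between percentiles 12.6 and 57.9, and dashed and dotted lines mark the median of all marked protein-coding genes, 69.1 in each list.

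The members were longer than protein-coding genes at large, with a median of 32.7 kb against 17.3 kb, so shares were also taken by length class. Among genes under 10 kb, 11 of 21 members in Utx-cKO (52.4%) and 9 in WT (42.9%) were marked, against 13.6% and 12.4% of all protein-coding genes of that class. From 10 to 50 kb the shares were 51.4% in Utx-cKO and 42.9% in WT, against 16.9% and 15.5%. From 50 to 200 kb, 16 of 20 members were marked in each genotype (80.0%), against 28.9% and 26.9%. Over 200 kb, 12 of 18 members in Utx-cKO (66.7%) and 11 in WT (61.1%) were marked, against 51.2% and 49.4%, the smallest gap of the classes.

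**Figure D5:**
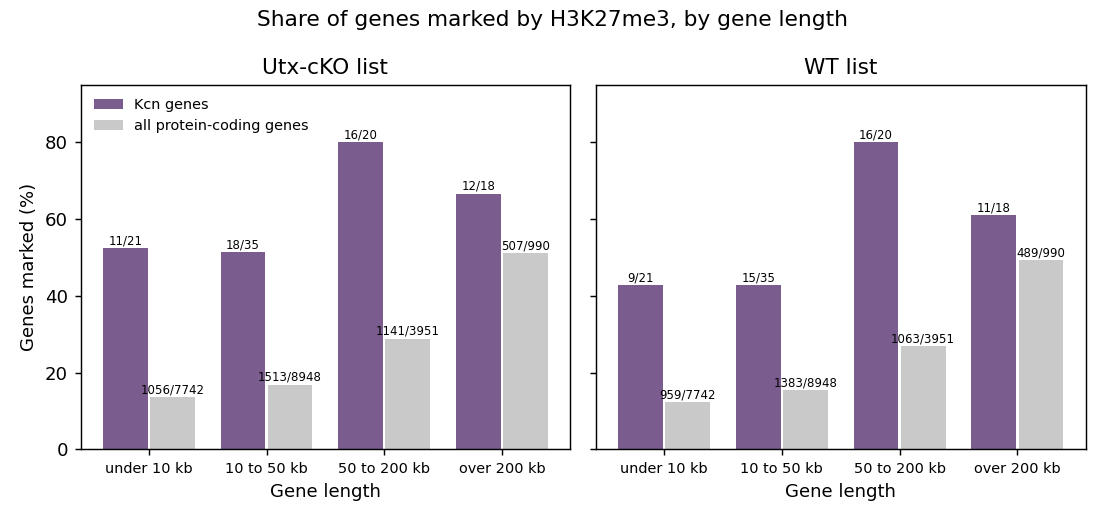
Share of genes marked (%) by class of gene length for Kcn genes (purple) and all protein-coding genes (grey), in the Utx-cKO list (left) and the WT list (right), with marked and total numbers above the bars. Kcn bars are taller in each class, and the gap is smallest over 200 kb.

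The 37 members without a peak in either list had a median length of 19.7 kb, against 46.7 kb for the 57 others. The nearest peak was over 100 kb away from 26 of them in Utx-cKO and from 29 in WT. The same share over all unmarked protein-coding genes was not taken, so these counts describe the members alone. The longest were Kcnip4 (1136 kb), Kcnd2 (514 kb), Kcnh7 (491 kb), Kcnb2 (437 kb) and Kcnt2 (368 kb). The nearest Utx-cKO peak just outside the 2 kb window was that of Kcnmb1, at 4104 bp.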

How the data were processed

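The series held 12 libraries from 6 animals, with 3 H3K27me3 and 3 IgG libraries for each genotype. The IgG libraries and values per library were not analysed here. Per the file headers, the authors called peaks with SEACR on data merged from all animals of a genotype. Per the submitters' processing notes, the tools named are deepTools, bedtools 2.27.1, SAMtools 1.9 and Bowtie2 2.3.4.3. The deposited signal values are the total and maximum coverage of each peak, while scale, normalization, SEACR mode and threshold are not given there. The unnamed columns were taken to follow SEACR's output order. Except for the common floor, signal served only to rank peaks of 1 list.

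Genes came from RefSeq GRCm38.p6. A gene was marked by an overlap of at least 1 bp with its body plus 2 kb, and whole-gene coverage meant 90% or more of the body. Overlaps were computed in Python 3.11.15 with pandas 2.3.3 and tested on simulated data. The text names members marked in 1 list alone, the widest peaks of each subfamily, members covered over 90%, the 5 highest ranks, the 5 longest unmarked members, X-linked members, Kcnq1 and members sharing peaks, and the others by subfamily. Further members given with values were chosen after these were seen. A few members that the rule names are not reported individually here, and remain in the counts. Members and lists were chosen with earlier results of these data known. With pooled lists no statistical test was possible. A set of 8 alternatives was tried.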

Additional observations from a re-analysis of the deposited data

How the results depend on the processing

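The numbers of marked and of at least 90% covered members stayed within 1.5 times the reported ones under all 8 alternatives, as did the number marked in Utx-cKO alone (4 to 6). Marked members ranged from 46 to 58 in Utx-cKO and from 42 to 53 in WT, with fewer in WT each time. Members marked in WT alone numbered 1 instead of 0 with the gene body without flank and with an overlap of 1 kb (Kcnip3 in both), and in the top 50% of each list (Kcnq5). There, those marked in Utx-cKO alone were Kcna10, Kcnab1, Kcne2, Kcne3 and Kcnk3, of which Kcne3 had no WT peak in its window and the other 4 had WT peaks below percentile 50 only. The median peak width was 17650 bp in Utx-cKO and 18150 bp in WT without flank, 19000 and 18975 bp at gene ends, 17150 and 18150 bp with 1 kb of overlap, 25150 and 24900 bp in the top 50%, and 17975 and 19125 bp with peaks under 5 kb apart merged. In Utx-cKO it was 17975 bp at the common floor and 17775 bp with equal numbers of peaks, and the cause of these differences was not tested. No paired analysis was possible because each list pools its animals, and leaving out a replicate was not possible for the same reason.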

Other observations

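Several peaks at potassium channel genes also lay over a neighbouring gene of another kind. In each list 9 of the peaks did so, and the share over peaks at all marked protein-coding genes was not taken. The Kcnc1 peak took in Myod1, the muscle determination factor, in Utx-cKO, where it was 29400 bp wide, while the WT peak of 6300 bp did not reach it. The Kcnj1 peak met Fli1, a transcription factor of blood and endothelium, in both lists. At Kcnq1 a peak met Trpm5, a taste cell channel, in both lists. For Kcnj1 the maximum of the strongest peak lay outside the gene. It stood 35807 bp in Utx-cKO and 36057 bp in WT from the gene's upstream border, which lies upstream of the listed start shown above. The maximum of the strongest peak lay inside the gene for 39 of 57 marked members in Utx-cKO and 37 of 51 in WT. For the members with known strand it lay within 10 kb of the upstream gene border in 32 of 43 in Utx-cKO and 29 of 37 in WT. That border is not the listed start in every member. For neither placement was the share over all marked protein-coding genes taken.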
